A study of Homo sapiens with 8 samples.

Results

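The genes described here are KRT7, KRT8, KRT10, KRT18, KRT19, KRT23, KRT80 and VIM, 7 keratins and vimentin, chosen by name from the gene count table. They make up 8 of its 58302 genes. The label of this set, simple epithelial keratins, covers most of them but not KRT10, a keratin known from the upper layers of the epidermis. RNA sequencing compared DLD1 cells, a human colorectal cancer line, carrying a wild-type TRMT6/61A construct (OE-WT) with cells carrying the empty vector (CTRL). Both groups were made by lentiviral transduction with stable expression, and neither differs by any other treatment in the labels. TRMT6 and TRMT61A form the enzyme that writes m1A, a methyl mark on adenosine, in tRNA. Each group has 2 libraries. Cells of both groups were washed in cycloheximide, a blocker of translation, before RNA extraction. The design text gives duplicate cultures but not separately made lines, so p-values measure the spread between these libraries, which may be technical. It also speaks of separate groups for the 2 genes, whereas the sample labels give 1 group for both.

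Keratins are the intermediate filament proteins of epithelia. A filament is built from pairs of 1 acidic (type I) and 1 basic (type II) keratin. In simple epithelia such as that of the colon, KRT8 is the main type II keratin, and KRT18 and KRT19 are its type I partners. KRT20 joins them in differentiated enterocytes. Vimentin assembles with itself, is the filament protein of mesenchymal cells, and is widely used as a marker of epithelial-mesenchymal transition. KRT7 is a type II keratin of ductal epithelia, KRT80 is a type II keratin found in many epithelia, and KRT23 is a type I keratin that has been described in colorectal cancers.

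The segment shown for KRT19, KRT10 and KRT23, the type I members on chromosome 17, is the coding sequence at the end of the helical rod, the part most alike among intermediate filament proteins. It is printed to show how near in sequence this stretch is in members with very different read counts. The stretch was located by an amino acid pattern that all of them share. That choice sets part of the likeness, which does not extend to the rest of the genes. Capitals mark GAG codons. GAG and GAC are among the codons whose decoding was at issue in the study, and no GAC fell in these 12 codons. Coordinates are GRCh38 with GENCODE release 44 transcripts, and each segment lies within 1 coding exon. The positions are chr17:41523785-41523820 (minus strand, exon 6 of 6) for KRT19, chr17:40819522-40819557 (minus strand, exon 6 of 8) for KRT10 and chr17:40925362-40925397 (minus strand, exon 7 of 9) for KRT23.
KRT19: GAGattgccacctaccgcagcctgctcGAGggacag
KRT10: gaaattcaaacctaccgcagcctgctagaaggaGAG
KRT23: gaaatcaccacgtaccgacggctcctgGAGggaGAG
The segments of KRT10 and KRT19 were identical at 29 of 36 bases, those of KRT19 and KRT23 at 26 of 36, and those of KRT10 and KRT23 at 25 of 36.

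The overexpressed genes were read first. TRMT6 had 210.8 and 180.9 normalized CPM (CPM, the read count relative to library size, with TMM scaling between libraries) in OE-WT against 52.6 and 55.4 in CTRL. The log2 fold change was 1.86 (standard error 0.08, edgeR adjusted p = 8.5e-13). TRMT61A had 137.5 and 130.4 against 58.9 and 56.8, a log2 fold change of 1.21 (standard error 0.07, edgeR adjusted p = 1.9e-10). Both genes were high in the libraries labelled OE-WT and low in those labelled CTRL. Total counts ran from 10327498 to 12379671 per library, and a count of 0 allows up to 3 counts, 0.242 to 0.290 CPM, for counting error only. Colon epithelial markers were detected in all libraries, with EPCAM at 461 to 545 normalized CPM and CDH1 at 1138 to 1403, while LGALS4 had 11 to 13 counts. COL1A2, COL3A1 and DCN (fibroblasts), CD3E (leukocytes) and CDH5 (endothelium) were at 0 in all 4 libraries. Other markers of these lists were detected, with COL1A1 at 18 to 22 counts, PDGFRB at 7 to 12, CD14 at 14 to 31 and VWF at 5 to 30. The rest had at most 4 counts in a library. In bulk RNA, fewer cells expressing a gene and less RNA per cell cannot be told apart.

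KRT8 and KRT18 were among the most abundant of the mRNAs ranked in these cells, and vimentin was nearly absent. The ranking covers the 18995 protein-coding genes with a representative (MANE) transcript, and genes without one were left out. Per kilobase of that transcript, KRT8 averaged 3100 normalized CPM over the 4 libraries and ranked 3rd. KRT18 averaged 2476 and ranked 7th. KRT19 followed at 504 (rank 117), then KRT80 at 36.0 (rank 1558), KRT10 at 20.9 (rank 2470) and KRT7 at 3.81 (rank 6477). KRT23 at 0.375 (rank 10993) and VIM at 0.254 (rank 11508) stood at the bottom. The ranges of the 4 libraries did not overlap between neighbours from KRT18 down to KRT23, but those of KRT23 (0.222 to 0.698) and VIM (0.0913 to 0.415) did. KRT8 (2787 to 3424) and KRT18 (2173 to 2783) were close, and KRT8 was above KRT18 within every library. KRT8, KRT18 and KRT19 together held between 97.5% and 98.0% of all counts on keratin genes.

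**Figure D1:**
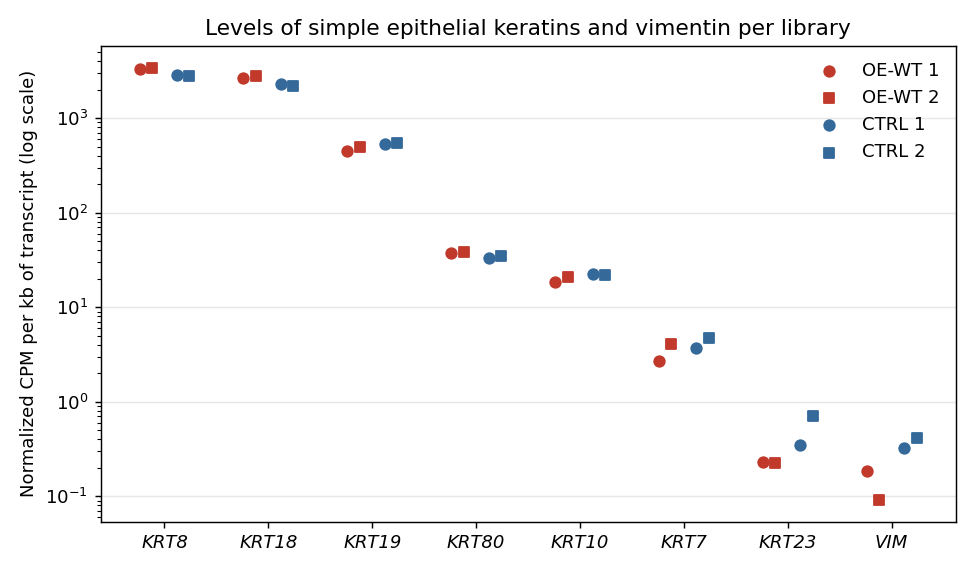
Level of each gene as normalized CPM per kilobase of transcript (log axis), 1 point per library, OE-WT in red and CTRL in blue. The order runs from KRT8 at 3100 to VIM at 0.254, a span that is far wider than any gap between the groups.

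Of the 6 members with enough counts to be tested, 2 rose (KRT8 and KRT18) and 1 fell (KRT19) at an edgeR adjusted p below 0.05, and no change reached 2-fold. Among all 14133 genes tested, 21.1% passed in either direction, 9.44% higher and 11.6% lower, so the 3 of 6 stand beside a background in which 1334 genes were higher and 1642 lower. Without CTRL replicate 1 the all-gene count was 1903, and DESeq2 called 1312. The OE-WT and CTRL values did not overlap for 5 of the 6 tested members, KRT7 being the exception, and this held for 60.2% of all genes tested. The median log2 fold change was -0.02 over the 6 members and 0.01 over all genes tested.

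KRT8, the type II keratin (ENSG00000170421, chromosome 12, 52897187 to 52949954, minus strand), had 5914 and 6109 normalized CPM in OE-WT against 5124 and 4973 in CTRL. The 2 OE-WT libraries were both higher. The means were 6012 ± 138 and 5048 ± 107 (SD, n = 2 each), a 1.19-fold difference (log2 fold change 0.25, standard error 0.07, edgeR adjusted p = 0.0173). As a share of the raw counts, KRT8 took 0.561% and 0.602% in OE-WT against 0.533% and 0.508% in CTRL. The estimate stayed positive in all 14 alternatives, from 0.16 to 0.28, and the call was lost in 4 of them. The edgeR adjusted p was 0.133 without OE-WT replicate 2, 0.0557 without CTRL replicate 2 and 0.303 with library size only in place of TMM.

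KRT18, its type I partner (ENSG00000111057, chromosome 12, 52948871 to 52952906, plus strand), had 3779 and 3932 normalized CPM in OE-WT and 3213 and 3071 in CTRL. Again both OE-WT libraries lay above both CTRL libraries. Its means were 3856 ± 108 and 3142 ± 101 (SD, n = 2 each), 1.23-fold higher in OE-WT (log2 fold change 0.30, standard error 0.07, edgeR adjusted p = 0.00512). The estimate ran from 0.20 to 0.33 over 14 alternatives. The call was lost in 2, with an edgeR adjusted p of 0.0505 without OE-WT replicate 2 and 0.153 with library size only. The spans of KRT8 and KRT18 overlap by 1084 bases on opposite strands, and the strand setting of the counting is not given in the sources used here.

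KRT19, the small type I keratin that lacks most of the tail (ENSG00000171345, chromosome 17, 41523617 to 41528308, minus strand), went the other way. It had 630 and 681 normalized CPM in OE-WT and 733 and 759 in CTRL, with no overlap. The means were 656 ± 36.1 and 746 ± 18.2 (SD, n = 2 each), 1.14-fold higher in CTRL (log2 fold change -0.19, standard error 0.07, edgeR adjusted p = 0.0491). This value lies close to the threshold, and the call was lost in 6 of the 14 alternatives, with estimates from -0.28 to -0.13. The edgeR adjusted p was 0.385 without OE-WT replicate 1, 0.0699 without CTRL replicate 1 and 0.175 without CTRL replicate 2, and DESeq2 gave an adjusted p of 0.125. With RLE size factors in place of TMM it was 0.0565 in edgeR.

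The opposite moves of KRT18 and KRT19 appear as a ratio within each library, which needs no scaling between libraries. This ratio was not planned and pairs the largest called rise with the only called fall among the members. Since both OE-WT libraries were higher for KRT18 and lower for KRT19, its groups could not overlap. KRT19 had 0.167 and 0.173 counts per KRT18 count in OE-WT, against 0.228 and 0.247 in CTRL. The OE-WT mean of 0.170 ± 0.00459 was 0.715 times the CTRL mean of 0.238 ± 0.0134 (SD, n = 2 each). Per kilobase, KRT19 made up 14.5% and 15.0% of the pair in OE-WT and 18.8% and 20.1% in CTRL. The ratio of KRT8 to KRT18 counts was 1.565 and 1.554 in OE-WT against 1.595 and 1.619 in CTRL, and the ratio of the group means was 0.970. Type II to type I counts over all keratins gave 1.36 and 1.34 against 1.31 and 1.31. All keratins took 0.999% and 1.08% of the library counts in OE-WT against 0.966% and 0.922% in CTRL. None of these ratios overlapped between groups, which for KRT19 and KRT18 followed from the values above. The share of all keratins is mostly KRT8 and KRT18 counts, so it is not separate from their values. Each of these measures had a two-sided p of 0.333 in an exact permutation test, the smallest that 4 libraries in 2 groups allow.

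**Figure D2:**
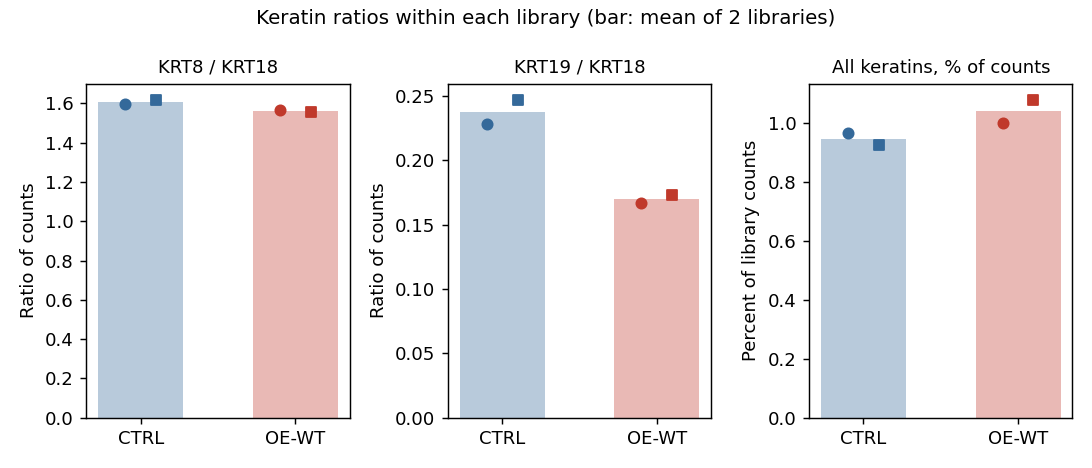
Ratio of KRT8 to KRT18 counts, ratio of KRT19 to KRT18 counts, and share of library counts on all keratins (percent), with bars for the mean of the 2 libraries and points for each library. KRT19 per KRT18 was 0.167 and 0.173 in OE-WT against 0.228 and 0.247 in CTRL, while KRT8 per KRT18 stayed between 1.554 and 1.619.

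The 3 other tested members did not pass. KRT80 (ENSG00000167767, chromosome 12, 52168996 to 52192014, minus strand) had 144.3 and 147.3 normalized CPM in OE-WT and 129.8 and 136.1 in CTRL, a log2 fold change of 0.13 (standard error 0.07, edgeR adjusted p = 0.160). KRT10 (ENSG00000186395, chromosome 17, 40818117 to 40822614, minus strand) had 39.8 and 44.5 against 48.3 and 46.7, a log2 fold change of -0.17 (standard error 0.08, edgeR adjusted p = 0.162). In both, the groups did not overlap but the gap was small. With library size only, KRT10 passed at -0.26 (edgeR adjusted p = 0.0378).
KRT7 (ENSG00000135480, chromosome 12, 52232520 to 52252186, plus strand) had 44 and 67 counts in OE-WT against 78 and 95 in CTRL, or 4.43 and 6.58 against 6.06 and 7.71 normalized CPM. These ranges overlapped, and the log2 fold change was -0.32 (standard error 0.21, edgeR adjusted p = 0.317). An antisense transcript, KRT7-AS, had 0.403 to 0.474 counts for each KRT7 count in the 4 libraries, and KRT10-AS1 had 0.479 to 0.541 for each KRT10 count. If the counting ignored strand, reads of these genes and their antisense partners cannot be told apart. KRT86, on the same strand as KRT7, overlaps its span by 2887 bases and had 5 to 8 counts per library. Strand does not separate that pair.

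KRT23 and VIM had too few counts for the filter and were not tested with the rest. KRT23 (ENSG00000108244, chromosome 17, 40922700 to 40937646, minus strand) had 5 counts in each OE-WT library, against 10 and 19 in CTRL. Its summed rate in OE-WT was 0.432 of that in CTRL (exact 95% interval 0.188 to 0.912). VIM (ENSG00000026025, chromosome 10, 17228241 to 17237593, plus strand) had 4 and 2 counts against 9 and 11, a ratio of 0.376 (exact 95% interval 0.124 to 0.970). Both OE-WT libraries were below both CTRL libraries for each gene. The share of 60.2% without overlap between groups is over tested genes and does not cover these untested genes. The intervals cover counting error only and not the spread between libraries. ENSG00000234477, a noncoding gene on the opposite strand, overlaps KRT23 by 14947 bases. It had 4 and 2 counts in OE-WT against 3 and 9 in CTRL. ENSG00000234961 overlaps VIM by 1509 bases on the opposite strand, with 2 and 0 counts in OE-WT against 3 and 7 in CTRL. If the counting ignored strand, such reads cannot be told apart from those of KRT23 and VIM. In a fit of all genes with at least 1 count, the log2 fold changes were -1.21 for KRT23 (edgeR adjusted p = 0.185) and -1.40 for VIM (edgeR adjusted p = 0.216), neither past the threshold. VIM was thus counted 2 to 11 times per library, in cells with 58706 to 65922 KRT8 counts.

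Among the other 43 keratin genes, 21 were at 0 in all 4 libraries and 5 could be tested, of which 2 fell and none rose. Over all genes tested, 11.6% fell and 9.44% rose. KRT20, the keratin of differentiated enterocytes, had 83 and 101 counts in OE-WT against 349 and 312 in CTRL. Its log2 fold change was -1.52 (standard error 0.13, edgeR adjusted p = 7.0e-08), and it passed in all 14 alternatives, from -1.66 to -1.40. KRT81, a hair keratin that shares sequence with KRT86, had 6 and 5 counts against 18 and 32, a log2 fold change of -1.84 (standard error 0.46, edgeR adjusted p = 0.00683). Without CTRL replicate 2 the KRT81 estimate was -1.33 (edgeR adjusted p = 0.149). Both genes also met the study's thresholds (p below 0.05 before adjustment and a change of over 2-fold), as did 2.25% of all genes on the lower side. None of the 6 tested members met them. In the fit of all genes with at least 1 count, KRT23 (-1.21, unadjusted p = 0.0292) and VIM (-1.40, unadjusted p = 0.0375) did, by edgeR's test and on few counts. The share of 2.25% does not cover this fit. With DESeq2 the unadjusted p was 0.188 for KRT23 and 0.213 for VIM, and edgeR's for VIM was 0.0652 with the replicate block.
By position, a grouping chosen after the values were seen, the 5 tested keratins of chromosome 17 (KRT10, KRT15, KRT19, KRT20 and KRT34) all had negative estimates, with a median of -0.26, and 2 of them fell. On chromosome 12, 4 of the 6 tested keratins had positive estimates, with a median of 0.19. KRT18 is the 1 type I keratin that lies on chromosome 12, beside KRT8.

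**Figure D3:**
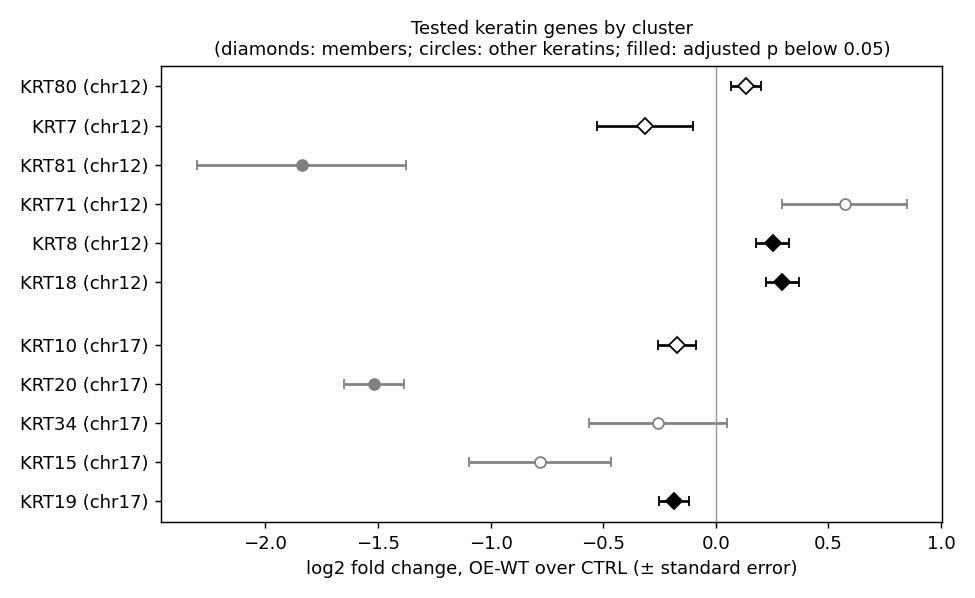
Log2 fold change, OE-WT over CTRL, with standard error, for the 11 tested keratin genes in order along chromosomes 12 and 17. Members are diamonds, other keratins circles, and filled symbols have an edgeR adjusted p below 0.05. KRT8 (0.25) and KRT18 (0.30) sit right of 0, and KRT19 (-0.19) and KRT20 (-1.52) left of it.

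Other intermediate filament genes outside the keratins numbered 15, of which 5 could be tested. Of these 5, 2 rose, against 9.44% of all genes tested. The lamins LMNB1 and LMNB2, which line the inner nuclear membrane, rose by log2 fold changes of 0.30 (edgeR adjusted p = 0.0123) and 0.20 (edgeR adjusted p = 0.0286). No call was left without OE-WT replicate 1 or without CTRL replicate 1, 1 was left without CTRL replicate 2, and 0 with library size only. Desmosomes anchor keratin filaments to the cell edge and cytolinkers tie them to other structures. Of 23 such genes 17 were tested, 3 rose and 6 fell, with a median log2 fold change of -0.04. That was 17.6% higher and 35.3% lower, against 9.44% and 11.6% among all genes tested. MACF1, a linker of microtubules and actin, had the largest rise at 0.48 (edgeR adjusted p = 0.00356), followed by DSP (desmoplakin) at 0.31 (edgeR adjusted p = 0.0300) and PKP2 (plakophilin 2) at 0.30 (edgeR adjusted p = 0.00906). Each of these 3 calls was lost when some single library was left out. The edgeR adjusted p of MACF1 was 0.0672 without OE-WT replicate 1. For PKP2 it was 0.0939 without OE-WT replicate 1 and 0.0741 without CTRL replicate 1, and for DSP it was 0.183 without OE-WT replicate 2, 0.0835 without CTRL replicate 1 and 0.0948 without CTRL replicate 2. Also of the plakin family, like MACF1 and DSP, EPPK1 (-0.90, edgeR adjusted p = 0.000286), PPL (-0.59, edgeR adjusted p = 1.2e-06) and PLEC (-0.53, edgeR adjusted p = 1.1e-05) fell, and passed in all 14 alternatives. EPPK1 and PLEC bind keratin and other intermediate filaments.

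Epithelial identity genes were mostly detected, and more fell than rose. Of 30, 29 were tested, 3 rose and 8 fell, with a median log2 fold change of -0.03. That was 10.3% higher and 27.6% lower, against 9.44% and 11.6% among all genes tested. CDH1, which encodes E-cadherin, had 1152 and 1138 normalized CPM in OE-WT and 1393 and 1403 in CTRL (log2 fold change -0.29, standard error 0.07, edgeR adjusted p = 0.00320). EPCAM, an epithelial surface protein, did not pass at -0.08 (edgeR adjusted p = 0.503), and without CTRL replicate 2 its sign turned, to 0.02. The falls included PRSS8 (-0.74, edgeR adjusted p = 4.2e-07) and SPINT1 (-0.58, edgeR adjusted p = 1.9e-06), a membrane protease and a protease inhibitor. The rises were the transcription factors HNF4A (0.46, edgeR adjusted p = 0.00243) and KLF5 (0.30, edgeR adjusted p = 0.00774) and the membrane protein MAL2 (0.23, edgeR adjusted p = 0.0234). Without OE-WT replicate 1 the adjusted p of KLF5 was 0.0680 and that of MAL2 0.266, and without CTRL replicate 1 they were 0.106 and 0.149, all from edgeR's test.

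Among mesenchymal genes, the class to which vimentin belongs, some rose and more fell. Of 31, 7 were at 0 in all libraries and 14 were tested, of which 2 rose and 6 fell, with a median log2 fold change of -0.41. That was 14.3% higher and 42.9% lower, against 9.44% and 11.6% among all genes tested. FN1 (fibronectin) had 75 and 55 counts in OE-WT against 41 and 48 in CTRL (0.87, standard error 0.23, edgeR adjusted p = 0.00886). TPM1, an actin-binding tropomyosin, rose by 0.76 on the log2 scale (edgeR adjusted p = 5.4e-08). MMP14, a membrane-bound matrix protease, had 148 and 158 counts in OE-WT against 644 and 560 in CTRL (-1.65, standard error 0.10, edgeR adjusted p = 4.1e-10). CALD1 (-1.54, edgeR adjusted p = 0.00699) and CD44 (-0.81, edgeR adjusted p = 6.8e-07), an actin regulator and a hyaluronan receptor, also fell. ZEB1, a repressor of epithelial genes, had 1 and 6 counts in OE-WT against 5 in each CTRL library and was not tested. Without OE-WT replicate 1 the list had 5 calls in place of 8, with edgeR adjusted p of 0.143 for FN1 and 0.0945 for CALD1, and without CTRL replicate 1 that of FN1 was 0.0634.

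Summed marker levels of other cell types were low in both groups. The 6 fibroblast markers summed to 3.22 and 2.46 normalized CPM in OE-WT and 2.41 and 2.27 in CTRL, mostly from COL1A1. The 4 leukocyte markers summed to 1.91 and 1.67 in OE-WT and 2.49 and 1.79 in CTRL, mostly from CD14, with PTPRC at 1 count in 1 library. The 3 endothelial markers summed to 0.806 and 0.590 in OE-WT and 2.33 and 1.14 in CTRL, mostly from VWF. VWF had 5 and 6 counts against 30 and 14, a log2 fold change of -1.65 (edgeR adjusted p = 0.0180). The part of such cells in the vimentin counts was not tested.

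Rows named as pseudogenes, copies that can draw reads from their parent genes, were few in counts. For KRT8 the 51 pseudogene rows held between 0.182% and 0.220% of the parent's counts, for KRT18 the 67 rows held 0.0800% to 0.0992%, and for KRT19 the 5 rows held at most 0.0106%. Adding them to the parents left all 3 calls in place. Reads that match both a parent and a copy may be counted on neither, which these rows cannot show.

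Most members were rich in GAC and GAG codons. These codons, which encode aspartate and glutamate, made up 13.5% of the codons of KRT18, 12.6% of KRT80, 12.0% of KRT8, 11.5% of KRT7, 11.2% of VIM, 10.3% of KRT19 and 8.29% of KRT23, against a median of 6.43% over 11579 tested genes. KRT10, at 4.62%, was the exception. KRT18 stood at the 97.9th percentile, KRT8 at the 95.2nd and KRT19 at the 87.8th. A link between codon content and the direction of change was not tested. The read counts measure mRNA and not translation.

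The genes whose profile over the 4 libraries lay nearest to KRT18, by Euclidean distance of the centred log2 normalized CPM plus 1 over 10214 candidates, were TPGS2, ARF3, GLOD4, FBXO5 and TTI1, at distances of 0.00695 to 0.0222. Nearest to KRT19 were DDRGK1, AGAP2-AS1, LMF2, ZDHHC18 and TEDC1, at 0.00922 to 0.0153. With 4 libraries in 2 groups, many genes share such a profile.

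**Figure D4:**
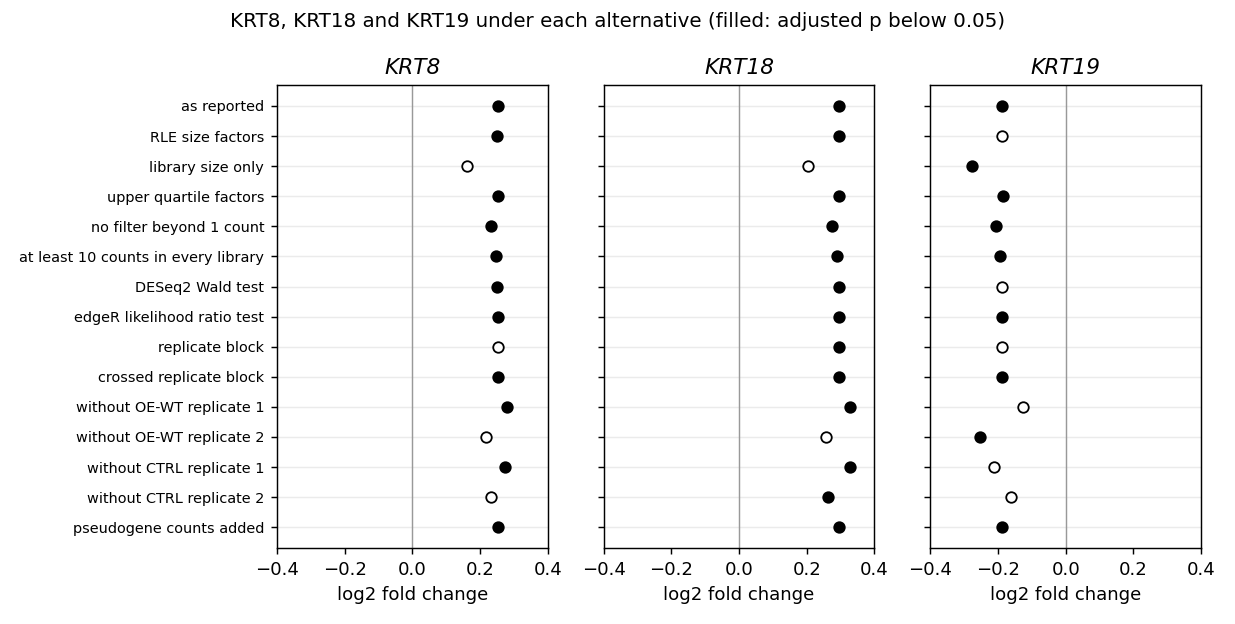
Log2 fold change, OE-WT over CTRL, of KRT8, KRT18 and KRT19 as reported and under 14 alternatives, filled where the adjusted p was below 0.05. Signs never changed, and KRT19 had the most open points, 6 of 14.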

How the data were processed

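Gene expression of DLD1 cells was measured by RNA sequencing in 2 OE-WT and 2 CTRL libraries, each run on 2 lanes that the table does not separate. The labels and the table give 2 replicates per group, whereas 3 biological replicates are stated in the paper's methods, and n = 2 is used throughout. The authors deposited raw read counts per gene. The submitters' processing notes name HISAT2 2.2.1, featureCounts 2.0.0 and DESeq2 1.34.0 on GRCh38, whereas the paper's methods name HISAT2, HTSeq and edgeR. The labels describe poly(A) selection and the paper's methods removal of ribosomal RNA. The annotation release is not given in the sources used here. GENCODE release 44 gave symbols for 57532 of 58302 identifiers.

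Counts were filtered by group (minimum count 10), TMM-normalized and tested with edgeR 4.0.16 (R 4.3.3) by the quasi-likelihood test. Benjamini-Hochberg adjustment covered the 14133 genes tested. The steps were tested on simulated data with changes larger than those estimated for the tested members, so changes of their size were not covered. Total counts were between 10327498 and 12379671. Ratios used an exact permutation test. Levels were divided by the length of the MANE transcript. Alternatives were other normalizations and filters, DESeq2 1.42.0, edgeR's likelihood ratio test, replicate blocks, each library left out, and pseudogene counts added. Members and lists were chosen with earlier results of these data known. Named are all members, the overexpressed genes, called genes of the keratin and filament lists, up to 3 rises and 3 falls of the other lists, CDH1, EPCAM, FN1 and ZEB1, and the 5 genes nearest in profile to the largest rise and fall among the members past the threshold (mean of at least 50 counts). Other genes were chosen after their values were seen. Some items that these rules would name are not reported here.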

Additional observations from a re-analysis of the deposited data

How the results depend on the processing

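All 8 members kept the sign of their estimate in every alternative that gave a value. Over all single genes refitted in this way, 400 alternative values kept their side of the threshold, 53 fell out of it and 2 came past it. Members higher, 2 as reported, numbered 0 with library size only and 1 with the replicate block, and 0 to 2 with a library left out. Members lower, 1 as reported, numbered 0 with RLE size factors, DESeq2 and the replicate block, 2 with library size only, and 0 to 1 with a library left out. Other keratins called (2) numbered 1 with at least 10 counts in every library, 1 with DESeq2 and 1 to 2 with a library left out. Other intermediate filament genes called (2) numbered 0 with library size only, without a filter and with DESeq2, 1 with the replicate block, and 0 to 2 with a library left out. Mesenchymal genes called (8) numbered 4 with DESeq2 and 5 to 8 with a library left out. With a library left out, EPCAM ran from -0.16 to 0.019, and its sign turned without CTRL replicate 2. Scaling by library size only moved the share of higher calls among all genes from 44.8% to 23.02% (733 higher and 2451 lower), with a median log2 fold change of -0.08. With a library left out, the lone library of a group is assumed to vary like the other group.

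The labels do not tie libraries with the same replicate number to a shared batch. Libraries with the same number deviated from their group means with r = -0.104. With 2 libraries per group, this cannot decide whether they shared one. Under the replicate block the adjusted p was 0.0811 for KRT8 and 0.138 for KRT19, and 2658 genes were called. LMNB2, DSP and MAL2 also lost their calls. With crossed numbers, an alternative chosen after seeing the data, 4274 genes and 4 members were called. KRT23 and VIM, with under 20 counts per library, allow only wide intervals.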
